A study of Felis catus with 77 samples.

Results

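Adipose tissue (AT) and connective tissue (CT) lying next to feline fibrosarcoma (FSA) were compared gene by gene, using the 16 libraries titled as AT and the 11 titled as CT out of 77 in the series. All came from client-owned domestic cats with a surgically removed FSA, a malignant tumor of fibroblast-like cells, and from archival formalin-fixed paraffin-embedded tissue, from which a pathologist's chosen areas were cut by laser-capture microdissection (LCM). No group received an experimental treatment or carried a designed allele, and breed, sex and age differed between cats and were not entered in the tests. Both tissues are peritumoral, so neither stands for tissue of a healthy cat. The 27 libraries came from 22 cats, of which 5 (cases 6, 13, 17, 29 and 31) gave both tissues and 17 gave 1 of them. The set of cases 11 to 17 stood apart by the number of genes found in a library. It contributed 5 AT and 3 CT libraries, and membership in it was a covariate of every test unless stated otherwise.

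White adipose tissue consists mainly of adipocytes, which store triglycerides in a lipid droplet and release fatty acids and hormones, together with blood vessels, immune cells and fibroblasts between the fat cells. Loose and dense connective tissue consists of fibroblasts and the collagen, elastic fibers and proteoglycans that they secrete. Fibroblasts are thus shared by both tissues, and skeletal muscle (SM) fibers run close to both under the skin. In dissected tissue of this kind, fewer cells of a type and less RNA per cell cannot be told apart.

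The files give genes by Ensembl identifier only, and none of the 19587 identifiers could be matched to a gene symbol, so adipocyte and fibroblast markers were not examined and genes are described here by number, level and behavior across libraries. Where the identity of a tissue was checked, lists of identifiers taken from the tumor (T) and SM libraries of the series were used in place of markers.

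Total counts lay between 1047617 and 7287267 in AT (median 2908520) and between 847003 and 6329045 in CT (median 3904682). At an equal depth of 847003 counts, AT libraries showed 13441 ± 2027 genes (SD, n = 16) and CT libraries 13943 ± 2900 (SD, n = 11). The difference of AT minus CT, -503 genes, did not pass a two-sided permutation test within the sets of cases (p = 0.169, adjusted 0.281 over 5 library measures). Within cases 11 to 17 the means were 15875 and 18203 genes, and in the other cases 12335 and 12346. The difference in total counts did not pass either (permutation p = 0.942).

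Of the libraries, 4 stood apart, those of AT in cases 5 and 6 and of CT in cases 6 and 21. The AT library of case 5 carries a tumor label beside its AT title. It showed 15088.8 genes at equal depth, more than any other AT library outside cases 11 to 17. Levels are given in log2 CPM, the log2 of a count scaled to the library total after trimmed mean of M values (TMM) normalization, with a prior count of 2. Across the tested genes the levels of this library correlated at 0.908 with the mean over the remaining AT libraries and at 0.832 with that over the CT libraries. The AT library of case 6 held a far larger share of SM-type counts than the other AT libraries, and the CT library of the same cat more than the other CT libraries outside cases 11 to 17. The CT library of case 21, with 863878 counts, showed 9691 genes at equal depth, the fewest of the 27.

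AT and CT differed at 1048 genes, or 8.39% of the 12491 tested. Of these, 592 genes (4.74% of those tested) were higher in AT and 456 (3.65%) were higher in CT. A call required a log2 fold change (log2(FC)) larger than 1 in size together with a Benjamini-Hochberg adjusted p-value below 0.05 by the quasi-likelihood test of edgeR. Without a limit on the log2(FC), 1735 genes (13.9%) passed. The median log2(FC) of all tested genes was 0.01. With the cat as a fixed block, in which only the 5 cases with both tissues inform the difference, 235 genes were higher in AT and 91 in CT. In simulated data with a log2(FC) of 2, that blocked fit recovered 9.4% of the changed genes and the fit reported here 78.5%. The simulated counts held no effect of the cat, whereas limma gave a correlation within cats of 0.17 in the data. Their spread was estimated without the tissue and so also held AT to CT differences. The simulation therefore cannot tell how much of the smaller number is lost power. With the cat as a random block in limma, 638 genes were higher in AT and 1005 in CT, so the larger number lay on the CT side. Without the AT library of case 5 the numbers were 557 and 476, and without the AT library of case 6 they were 543 and 471, of which 533 and 429 were among the 592 and 456.

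The differences on the CT side were larger and lay at lower levels. Genes higher in CT had a median log2(FC) size of 1.89, and 213 of the 456 (46.7%) differed by more than 2, with 29 beyond 4. Genes higher in AT had a median size of 1.60, and 185 of the 592 (31.2%) differed by more than 2, with 12 beyond 4. The median level was 6.15 log2 CPM for genes higher in AT, 4.78 for genes higher in CT and 4.93 for all tested genes. Among the 3123 most abundant genes, from 6.17 log2 CPM upwards, 292 (9.35%) were higher in AT and 95 (3.04%) in CT. Among the 3123 least abundant, 37 (1.18%) were higher in AT and 96 (3.07%) in CT. The precision changed with the level in the same direction, since the median standard error of the log2(FC) was 0.63 among the least abundant and 0.19 among the most abundant genes.

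**Figure D1:**
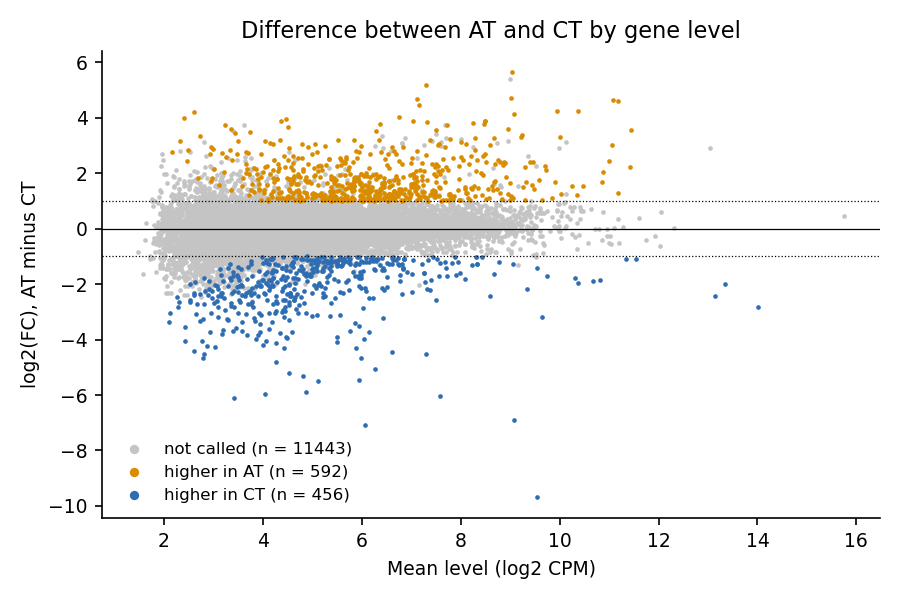
Each point is 1 of the 12491 tested genes, with its mean level in log2 CPM on the x axis and the log2(FC) of AT minus CT on the y axis. Orange points are the 592 genes higher in AT, blue points the 456 higher in CT and grey points the rest, with dotted lines at a log2(FC) of 1 and -1. The largest differences lie on the CT side, with a size of up to 9.66, while among the 3123 most abundant genes the orange points (292) outnumber the blue ones (95).

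The called genes made up a visible part of each tissue's RNA. Genes higher in AT took between 8.11% and 19.2% of the counts of an AT library (median 13.4%) and between 3.08% and 4.91% of those of a CT library (median 3.74%). Genes higher in CT took between 7.42% and 21.6% of the counts of a CT library (median 11.5%) and between 1.18% and 5.52% of those of an AT library (median 2.78%). These genes were chosen on the same libraries, so the shares are a description. Among the 100 most abundant identifiers of each tissue, 64 (64.0% of each list) were shared. Of the 100 most abundant in AT, 29 were called higher in AT and 5 higher in CT. Of the 100 most abundant in CT, 17 were called higher in CT and 4 higher in AT.

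A complete separation of the tissues was seen for few genes. In 55 genes (0.44% of those tested) every AT library lay above every CT library, and in 13 genes (0.104%) every CT library lay above every AT library. All 55 and all 13 were among the called genes. With each of the 4 libraries that stood apart left out in turn, the numbers were 55 to 62 and 13 to 16. With fewer libraries a complete separation is easier to reach, so these numbers are no test of its stability. Genes higher in CT varied more between libraries, though they also lay at lower levels and the SD was not compared at equal level. As a description, their median SD within AT was 1.24 log2 CPM and within CT 0.91, where genes higher in AT had 0.74 and 0.81 and all tested genes 0.82 and 0.77. No identifier had a count in every library of one tissue and none in the other. A count in at least 1 AT library and in no CT library was seen for 91 identifiers, and the converse for 219. This rule is hard to meet, since the CT library of case 14 alone had a count for 18846 identifiers. How often an identifier was detected in each tissue was not compared.

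Single identifiers show what the called differences look like in the libraries. They were taken as the most changed genes, 2 in each direction, among those with the same direction in all 5 cases with both tissues and a median of at least 50 counts in the higher tissue, which left 384 candidates in AT and 214 in CT. Since their direction in the 5 cases was part of the choice, it is given as a description.

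ENSFCAG00000035912 was the most AT-sided of them. Its level ranged from 5.66 to 11.25 log2 CPM in AT (median 9.46) and from 2.56 to 6.40 in CT (median 2.92). All but 1 of the AT libraries lay above the highest CT library, the exception being AT of case 17. The log2(FC) was 5.65 (standard error 0.60, edgeR adjusted p-value 4.07e-08). Counts had a median of 1946 per AT library and 27 per CT library. Within the 5 cases, AT exceeded CT by 6.71 in case 6, 6.18 in case 13, 2.74 in case 17, 4.44 in case 29 and 6.13 in case 31. The mean level was -0.77 in T and -0.24 in SM on the scale of all 77 libraries, where AT had 8.83 and CT 3.28, so tumor and muscle libraries held few or no counts of it.

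For ENSFCAG00000039734 the tissues did not overlap. Its level ranged from 4.87 to 9.48 log2 CPM in AT (median 7.29) and from -0.82 to 4.48 in CT (median 3.08), where -0.82 is the value of a library without a count, seen in 2 CT libraries. The log2(FC) was 5.17 (standard error 0.63, edgeR adjusted p-value 4.97e-07). As for the preceding identifier, case 17 had the smallest difference within a cat (1.55) and case 6 the largest (6.66). Its mean level was -1.40 in T and -0.82 in SM.

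ENSFCAG00000010022 was much higher in CT but far from uniform there. Its level ranged from 1.11 to 12.28 log2 CPM in CT (median 9.0) and from -0.82 to 6.22 in AT (median 1.90), with no count in 5 AT libraries. The log2(FC) was -6.90 (standard error 0.91, edgeR adjusted p-value 1.79e-06), and -7.62 without the AT library of case 5. Of the 11 CT libraries 7 lay above the highest AT library, while none of them lay below every AT library. Within cats the difference of AT minus CT was -11.54 in case 31, -7.02 in case 6, -5.75 in case 17, -4.29 in case 13 and -0.25 in case 29. The CT library of case 29, with the lowest level in CT, thus held about as little of it as the AT library of the same cat. The mean level in T was 4.27 and in SM 0.71, where CT had 7.38 and AT 1.54.

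ENSFCAG00000011987 was rarer. No count was found in 11 of the 16 AT libraries and in 1 CT library. The highest counts were 22 in AT and 167 in CT, with medians of 0 and 56. The log2(FC) was -6.10 (standard error 0.996, edgeR adjusted p-value 4.85e-05), and 6 of the 11 CT libraries lay above the highest AT library. In the other cases alone the identifier did not pass the filter on low counts. In cases 11 to 17 alone the log2(FC) was -2.15 and did not pass the test (edgeR adjusted p-value 0.381). With the cat as a fixed block it was -4.23 and did not pass either (edgeR adjusted p-value 0.109). Without the covariate for the sets of cases it was -3.53 (edgeR adjusted p-value 0.0136), and the mean levels over all libraries were 0.08 log2 CPM in AT and 3.68 in CT. The size of the difference thus varied widely with the fit.

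**Figure D2:**
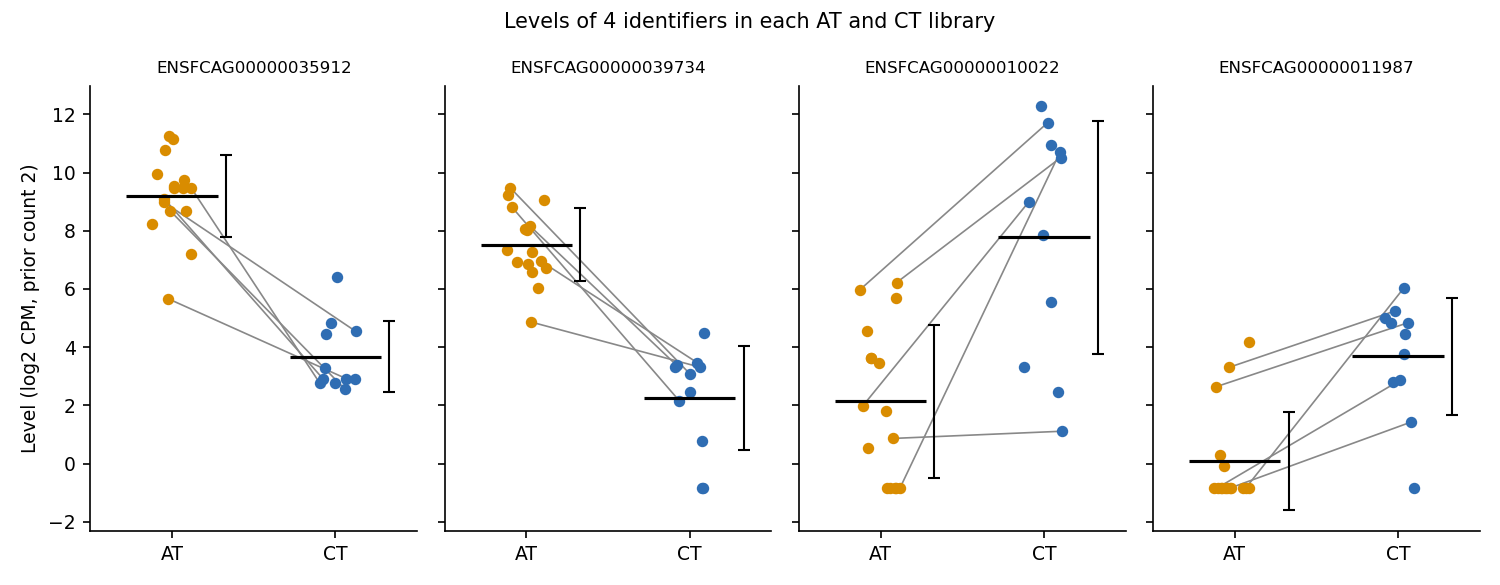
Points give the level (log2 CPM with a prior count of 2, y axis) of 4 identifiers in each of the 16 AT libraries (orange) and 11 CT libraries (blue), with horizontal lines at the mean, error bars of 1 SD and grey lines joining the tissues of the 5 cases with both. For ENSFCAG00000039734 every AT point lies above every CT point, while for ENSFCAG00000010022 the CT points spread from 1.11 to 12.28.

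To examine the direction within cats without using a library for both steps, genes were called again on the 17 libraries of cases with 1 of the tissues (11 AT and 6 CT) and then followed in the 5 cases with both. In the 17 libraries, 398 genes (3.17% of the 12559 tested) were higher in AT and 258 (2.05%) higher in CT. Of the 398 genes, 270 (67.8%) were higher in AT within all 5 cats and 90.7% within at least 4. Of the 258 genes, 143 (55.4%) were higher in CT within all 5 cats and 87.2% within at least 4. Of all genes tested, 14.1% had the same direction as in the 17 libraries within all 5 cats and 38.1% within at least 4. For genes higher in AT the median difference was 1.54 within the 5 cats and 1.72 in the 17 libraries. For genes higher in CT it was -1.49 and -1.94. The values within cats are mean differences in log2 CPM, those of the 17 libraries log2(FC) values of the fit that called these genes. Their sizes are therefore not directly comparable.

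The cats differed in how far the tissues were apart. The median difference of genes higher in AT was 2.06 in case 6, 1.91 in case 31, 1.66 in case 13, 1.38 in case 29 and 0.76 in case 17. For genes higher in CT it was -2.33 in case 6, -1.98 in case 31, -1.37 in case 29, -1.13 in case 13 and -0.68 in case 17. The share of genes with the same sign as in the 17 libraries was lowest in case 17, with 78.4% on the AT side and 73.6% on the CT side, against at least 92.5% and 89.9% in the other 4 cats and 56.1% of all tested genes in case 17. The totals of the case 17 libraries were 1768375 counts in AT and 1351243 in CT, above those of case 13. Their part in the smaller difference was not tested.

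**Figure D3:**
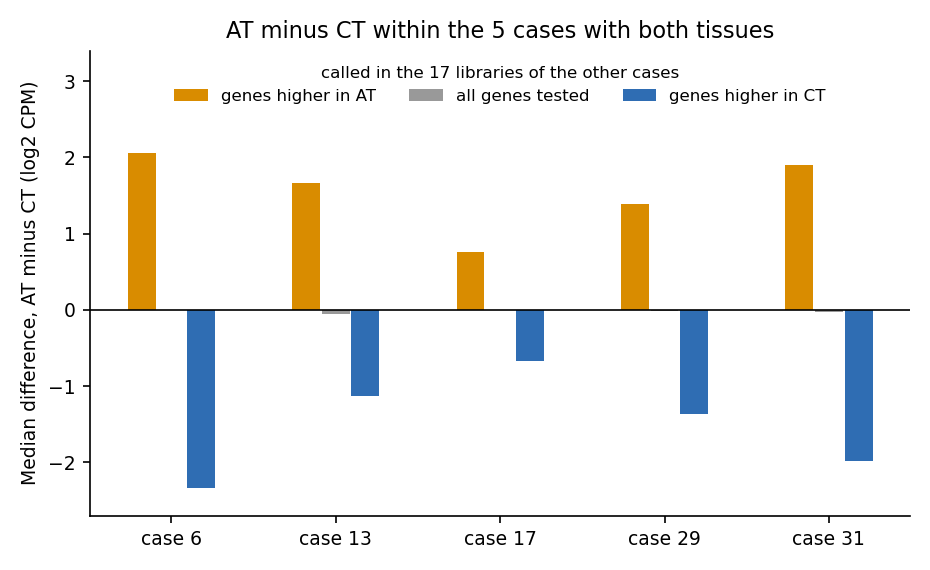
Bars give the median difference of AT minus CT within each of the 5 cats with both tissues (y axis, log2 CPM), for genes called higher in AT (orange) and higher in CT (blue) in the 17 libraries of other cats, and for all tested genes (grey, near 0). Every orange bar is positive and every blue bar negative, with case 17 showing the shortest bars (0.76 and -0.68).

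Each library was also placed between the tissues by genes called without it. The position is the mean log2 CPM of the genes higher in AT minus that of the genes higher in CT, scaled so that the mean of the other CT libraries is 0 and that of the other AT libraries is 1. For the cats with both tissues, the library of the other tissue stayed in the fit. AT libraries lay between 0.41 and 1.37 (median 0.95) and CT libraries between -0.05 and 0.33 (median 0.08), so the tissues did not overlap. The AT library with a tumor label (case 5) was at 0.94, within the range of the other AT libraries. The AT library of case 6 was at 1.17. The lowest AT position was that of case 17 (0.41), followed by cases 12 (0.65), 16 (0.65) and 13 (0.73), all from cases 11 to 17. The highest CT position was that of case 29 (0.33).

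Tumor and muscle libraries, which played no part in the calls, were placed in the same way. T libraries lay between 0.09 and 0.41 (median 0.27, n = 30), and every one of them was nearer to the CT mean than to the AT mean. SM libraries lay between 0.34 and 1.005 (median 0.74, n = 20), and 19 of them were nearer to the AT mean. Without the AT library of case 6 the SM libraries lay between 0.25 and 0.85 (median 0.61), and 16 were nearer to the AT mean. A position does not tell which set of genes moved a library. Genes higher in AT had a median level of 5.94 log2 CPM in AT, 4.30 in CT, 3.70 in T and 4.89 in SM. For genes higher in CT it was 2.62 in AT, 4.74 in CT, 3.22 in T and 2.305 in SM. On the genes higher in CT, T thus lay nearer to AT than to CT. On the genes higher in AT, SM lay nearer to CT than to AT. Of the 592 genes higher in AT, 420 (70.9%) had their highest mean level in AT among the 4 tissues, 155 (26.2%) in SM and 17 (2.87%) in T. Of the 456 genes higher in CT, 371 (81.4%) were highest in CT, 58 (12.7%) in T and 27 (5.92%) in SM. For all tested genes these shares were 16.4% for AT, 22.6% for CT, 30.4% for T and 30.6% for SM. The called genes were chosen by their levels in AT and CT, which favors a highest level in the tissue of the call. None of those higher in AT was highest in CT, nor the converse. The shares of all tested genes are therefore not a like background. Without the AT library of case 6, 122 of 543 genes higher in AT (22.5%) and 54 of 471 higher in CT (11.5%) were highest in SM. All 13 genes with every CT library above every AT library were highest in CT, and 51 of the 55 with the converse pattern were highest in AT, the other 4 in SM. The choice of these genes favors this in the same way.

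**Figure D4:**
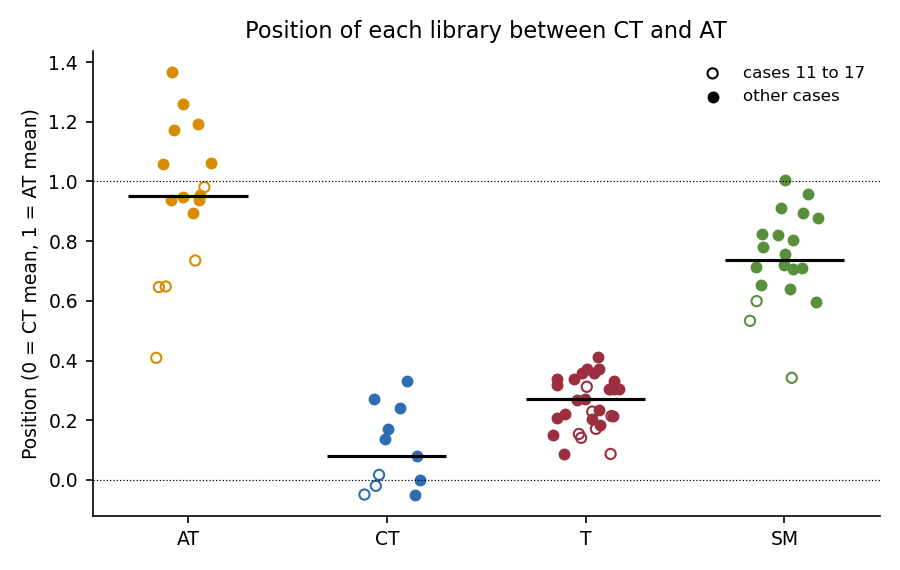
Each point is 1 library, with the position between the CT mean (0) and the AT mean (1) on the y axis, by tissue, and a line at the median of each tissue. Open points are cases 11 to 17. AT points (0.41 to 1.37) lie above all CT points (-0.05 to 0.33), T points between 0.09 and 0.41 and SM points between 0.34 and 1.005.

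The tissue lists were then used to ask what share of the counts in AT and CT libraries fell on identifiers that distinguish SM from T. The SM list holds the 200 identifiers with the largest log2(FC) of SM over T (5.31 to 14.59) and the T list the 200 with the largest log2(FC) of T over SM (2.60 to 6.70), both called on T and SM libraries alone with a mean above 5 log2 CPM in the higher tissue. The T list therefore covers whatever distinguishes tumor from muscle, which can include genes of any fibroblast-rich tissue. The SM list likewise covers whatever distinguishes muscle from tumor, so its members need not be particular to muscle. Neither the covariate for the sets of cases nor the cat was entered in the fit that gave the lists.

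The SM list took between 34.7% and 65.0% of the counts of SM libraries. In the AT library of case 6 it took 31%, and in the other 15 AT libraries between 0.425% and 1.32% (median 0.737%). In CT libraries it took between 0.205% and 1.94% (median 0.313%), with case 6 again the highest. The share in the AT library of case 6 thus lay far above the other AT libraries and below every SM library. Its position on the genes separating AT from CT does not tell adipose from muscle, since SM libraries lay on the same side. Over all libraries the means were 2.70% in AT and 0.597% in CT, a difference that did not pass a permutation test (p = 0.485, adjusted 0.606). In cases 11 to 17 they were 0.980% and 0.898%, and in the other cases 3.48% and 0.485%. The AT means of 2.70% and 3.48% include the 31% of case 6. Without that library the AT mean was 0.812%. The difference was then 0.214 percentage points and did not pass either (adjusted permutation p = 0.304). The test compared means, so single libraries with a high share weigh most in it.

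Of the 200 SM list members 126 passed the filter on low counts. In edgeR 22 were called higher in AT and 0 higher in CT, which is 17.5% and 0.0% against 4.74% and 3.65% of all tested genes, while 1 at an unadjusted p under 0.05 and 3 in DESeq2 were higher in CT. The median log2(FC) was 1.70. This direction depended on the fit and on 1 library. With all libraries kept, the median was -0.10 in DESeq2, with 60 of the 126 members above 0, and -0.22 in limma with the cat as a random block, with 22 members higher in AT and 5 in CT. Without the AT library of case 6, 109 members passed, 19 were higher in AT (all 19 among the 22) and 12 higher in CT, against 4.39% and 3.81% of all genes tested without it, and the median log2(FC) was -0.43. So 19 identifiers that were far higher in muscle than in tumor were also higher in AT than in CT without the AT library of case 6.

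The T list took more of the counts in CT than in AT. Its share lay between 4.80% and 19.7% in CT (mean 10.3% ± 5.04, SD, n = 11) and between 1.54% and 6.82% in AT (mean 3.76% ± 1.46, SD, n = 16). In T libraries it lay between 4.40% and 26.1% (median 14.8%) and in SM libraries between 0.110% and 1.30%. The difference of -6.49 percentage points passed a two-sided permutation test within the sets of cases (p = 1e-05, the smallest that 100000 permutations can give, adjusted 5e-05). AT was lower in all 5 cats with both tissues, by 18.2 percentage points in case 6, 6.56 in case 29, 3.28 in case 31, 2.48 in case 13 and 2.0 in case 17 (two-sided exact permutation test with the cat as a block, p = 0.0625, the smallest that 5 cats allow). The means were 4.25% in AT and 6.76% in CT within cases 11 to 17, and 3.54% and 11.6% in the other cases. Without the AT library of case 6 the difference was -6.35 (adjusted permutation p = 0.00015).

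All 200 members of the T list were tested between AT and CT. Of these, 34 (17.0%) were higher in CT and 9 (4.50%) higher in AT, and 150 had a log2(FC) below 0, with a median of -0.47. The CT side of the tissue difference thus held a larger part of the T list than the 3.65% of all genes called higher in CT, although most of its members did not pass. In cases 11 to 17 alone, 1 of 199 members was higher in CT and 2 in AT, against 0.661% and 1.03% of all genes tested there, and the median was -0.16.

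**Figure D5:**
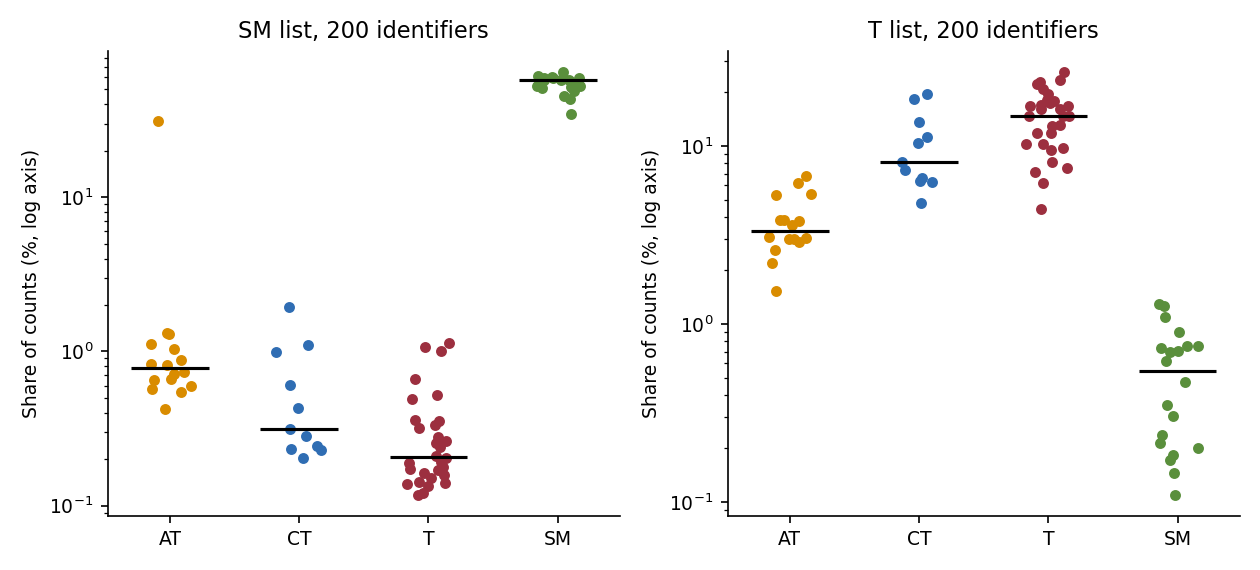
Points give the share of each library's counts (%, logarithmic y axis) taken by the 200 identifiers of the SM list (left) and of the T list (right) in AT, CT, T and SM libraries, with a line at the median. In the left panel 1 AT library, that of case 6, lies at 31% and the other 15 at 1.32% or less. In the right panel CT (median 8.09%) lies between AT (3.34%) and T (14.8%).

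The difference between AT and CT was then compared between cases 11 to 17 and the other cases. In the other cases (11 AT and 8 CT), 580 genes (4.89% of 11858 tested) were higher in AT and 434 (3.66%) higher in CT. In cases 11 to 17 (5 AT and 3 CT) 159 and 102 of 15421 tested genes were called. Of the genes higher in AT in the other cases, 577 were also tested in cases 11 to 17, where 527 (91.3%) had the same sign and the median log2(FC) was 1.30 against 1.75. Of those higher in CT, 432 were tested, 299 (69.2%) had the same sign and the median was -0.49 against -1.68. Of all genes tested in both sets, 58.7% had the same sign. Their median log2(FC) was 0.195 in cases 11 to 17 and -0.004 in the other cases. Values in cases 11 to 17 were thus shifted toward AT as a whole, which favors the same sign on the AT side. Fewer genes kept their sign on the CT side than on the AT side. This contrast of sides was neither corrected for the shift nor tested.

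A difference of the AT to CT contrast itself between the sets passed for 12 genes (0.0961% of 12491, by the interaction term in edgeR's quasi-likelihood fit with adjusted p-values below 0.05). At an unadjusted p below 0.05 there were 1182. In 10 of the 12 the log2(FC) of AT minus CT was larger in cases 11 to 17 and in 2 it was smaller. For 8 genes the mean difference had opposite signs in the sets. The number depended on single libraries and changed by more than 1.5 times with 16 of the 27 left out in turn. It was 1 without the CT library of case 13 or 17, 2 without AT of case 16, 5 without CT of case 14 or 29, and 7 without AT of case 15, 18, 19, 27, 28 or 29 or CT of case 30. It was 22 without AT of case 12, 31 without AT of case 13, 32 without CT of case 22 and 38 without AT of case 23. In simulated data with 3 CT libraries on one side, 65.2% of genes with an interaction of 4 on the log2 scale and 17.7% of those with 2 were recovered. Differences between the sets may thus be missed at this size. The simulated spread was estimated without the tissue and so also held AT to CT differences. How many would be missed in the data was therefore not settled.

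Libraries of one tissue resembled each other somewhat more than libraries of different tissues. Within the other cases library pairs correlated across genes with a median of 0.811 between AT libraries (55 pairs), 0.812 between CT libraries (28 pairs) and 0.755 between AT and CT libraries (88 pairs). Within cases 11 to 17 the medians were 0.745 (10 pairs), 0.837 (3 pairs) and 0.701 (15 pairs). Between the tissues of one cat the correlation was 0.874 in case 29, 0.792 in case 17, 0.769 in case 31, 0.699 in case 13 and 0.697 in case 6. These correlations are taken across genes, which are not independent, and the libraries share their preparation and sequencing.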

How the data were processed

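RNA from LCM-isolated tissue was sequenced as single reads from a stranded total RNA library kit. The authors deposited raw whole-number counts per Ensembl gene identifier for each library, not normalized. The study's methods name Trimmomatic and Kallisto with Felis_catus_9.0, while the submitters' processing notes name STAR and featureCounts. Which of these made the deposited counts was not settled, so reads shared by similar genes may have been split or left out. None of the 19587 identifiers matched the 39307 genes of the reference table, which is of another assembly, so gene lists by symbol, positions and sequences were not analysed here.

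Tissue and case were taken from the sample titles. AT and CT libraries were compared with edgeR 4.0.16 and limma 3.58.1 under R 4.3.3, using TMM normalization, the filterByExpr filter by tissue and cases 11 to 17 as a covariate. DESeq2 1.42.0 and other filters, blocks and sets of libraries were alternatives. Library measures were tested in Python 3.11.15 (numpy 2.4.6, scipy 1.17.1, pandas 2.3.3) with 100000 permutations within the sets of cases. The fits were tested on simulated data with known changes, no effect of the cat and a spread estimated without the tissue. Of changed genes with a log2(FC) of 2, 78.5% were recovered for AT against CT (11939 genes), with 3 calls among unchanged genes. No pair of AT and CT libraries was identical. Each library is 1 sample of 1 cat, and p-values measure the spread between these samples.

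A case number marks a single cat, whose tissues are thereby paired. Deviations from the tissue means, taken within the set of cases, were correlated across genes. Between the tissues of one cat the median was 0.13 (0.0699 to 0.182, 5 pairs). Between different cats of the same set it was -0.0115 (-0.147 to 0.223, 98 pairs), a range that held all 5 values of the same cat. The comparison, the lists and the rule for named identifiers were chosen with earlier results of these data known. The rule took calls with at least 50 counts at the median of the higher tissue and the same direction in all 5 cats, ranked by the size of log2(FC), and the first 2 in each direction.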

Additional observations from a re-analysis of the deposited data

Results flagged for a closer look

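Far values were looked for in 18 groups of libraries or of differences within cats, where about 0.9 are given by chance, and 4 were found. The share of the SM list in the AT library of case 6 (31%) is not itself among the 4. They are therefore not all the far values in these data. The AT minus CT difference in the share of the SM list was 29.06 percentage points in case 6, with the next cat at 0.395. In the same cat the difference in the share of the T list was -18.16 percentage points, with the next at -6.56. Among CT libraries outside cases 11 to 17, that of case 6 had the highest share of the SM list (1.94%, with the next at 0.429%). In the same group the CT library of case 21 showed 9691 genes after thinning to 847003 counts, and the next library showed 12155.6. Without that library 540 genes were higher in AT and 498 in CT.

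The AT to CT difference itself differed between cases 11 to 17 and the other cases for 12 genes, by the interaction term of edgeR's quasi-likelihood test. The number lay between 1 and 38 when single libraries were left out.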

How the results depend on the processing

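Of 433 values under alternative settings, 396 kept their direction and stayed on their side of the threshold, within 1.5 times for a count or within 1 SD for a median, 29 moved, 3 became weaker and 5 reversed. Of the 1048 called genes, those tested under an alternative (from 877 in thinned libraries to all 1048 in 14 of 42 alternatives) kept their sign, apart from 47 in cases 11 to 17 only.

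With each library left out in turn, 527 to 608 genes were higher in AT and 410 to 498 in CT, and the interaction passed for 1 to 38 genes. It passed for 154 genes with DESeq2 and for 3 without TMM. With the replicate block as a fixed factor 235 genes were higher in AT, 91 higher in CT and 328 passed without a limit on the log2(FC). With the block in limma 1005 were higher in CT and 2668 passed. In cases 11 to 17 only, with 8 libraries, the numbers were 159, 102 and 261. In the 17 libraries of cases with 1 tissue 258 genes were higher in CT and 740 passed. Without the filter on low counts 810 were higher in CT. Genes higher in AT were 56.5% of the calls, against 48.1% with DESeq2, 49.1% without TMM, 41.0% without the filter, 46.4% with all 77 libraries in one fit, 38.8% with the block in limma and 72.1% with the fixed block, so which side held more calls depended on the processing.

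The median log2(FC) of the SM list, 1.70, reversed to -0.10 with DESeq2, -0.22 with the block in limma and -0.46 in cases 11 to 17 only, and lay between -0.43 (without AT of case 6) and 2.13 over the libraries left out. The difference in total counts, -130929, was 394519 over the 5 paired cats (exact permutation p = 0.5). That of the T list, -6.50 percentage points over the paired cats, had an exact permutation p = 0.0625 with the replicate block, the smallest that 5 cats allow. Of the named identifiers, ENSFCAG00000011987 did not pass with the fixed block, and no other named identifier lost its call with either block. The cause of these changes was not tested. Leaving out cases 11 to 17 together with the AT library of case 5, a choice made after seeing the data, gave 549 genes higher in AT and 421 in CT. Depth limits the least abundant genes most, and with all libraries thinned to 847003 counts 519 and 384 genes were called.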
